A study of Homo sapiens with 38 samples.

Results

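The interval examined here is the passage from day 4 to day 6 of differentiation in mTeSR. It rests on 4 of the 38 libraries of the series, 2 taken at day 4 and 2 at day 6, assigned by their titles and by no measured value. All came from Shef6, an established human embryonic stem cell line, with no genetic change named in the labels. The cells had been kept in naive pluripotency on a serum coating in PXGL, which combines LIF with blockers of MEK, tankyrase and protein kinase C. They were then dissociated and seeded on Geltrex, a basement membrane matrix, with ROCK inhibitor on the first day only, and carried in mTeSR. mTeSR and E8 are commercial media that supply FGF and act on Activin A signalling, whereas N2B27 is the basal medium with neither added. The same days in N2B27 and in E8, each with 2 libraries a day from the same experiment, are used only to show where the mTeSR interval differed, and the 2 mTeSR libraries of day 8 to show what followed. The legends of the study call parallel libraries of this kind technical replicates in places, so that p-values measure only the spread between libraries of 1 experiment.

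Naive cells resemble the epiblast before implantation and must pass through a formative state before they can enter a germ layer. During that passage cells change how they use glucose, and they become responsive to Nodal, WNT and BMP ligands, which in the embryo set up the primitive streak, the source of mesoderm and endoderm. Cells at low oxygen stabilise HIF transcription factors, which bind a short core sequence in promoters and raise genes for glucose uptake, lactate production and mitochondrial turnover. Nodal signalling acts through SMAD2, SMAD3 and FOXH1 and induces its own antagonists, LEFTY1, LEFTY2 and CER1, whereas WNT signalling acts through TCF and LEF factors.

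Library totals were 4208819 and 4342115 counts at day 4 and 4430286 and 4554903 at day 6, close to the median of 4427277 over all libraries (range 3038046 to 5612354). Log2 levels correlated across genes at 0.9846 between the day 4 libraries, at 0.9879 between those of day 6, and at 0.9689 to 0.9773 between days. Day 4 replicate 2 was nearest to an E8 library of day 4 (0.9849), hardly nearer than to its own replicate. Counts of mitochondrially encoded genes took 3.18% and 2.71% of the day 4 libraries and 2.25% and 2.11% of those of day 6, within the series range of 1.86% to 3.63%.

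The interval was marked more by gains than by losses. Of 16674 genes tested, 382 were called higher at day 6 (2.29% of those tested) and 104 lower (0.624%), where a call required a Benjamini-Hochberg adjusted p-value of edgeR's quasi-likelihood test under 0.05 and an absolute log2 fold change (log2FC) above 1. Without the fold threshold, 897 genes were higher (5.38%) and 575 lower (3.45%), and the median log2FC of all genes was 0.02. These shares of all tested genes are the background for the counts of list members below. Fewer genes were called whichever library was left out, the fewest without day 4 replicate 1. In the full comparison 78.6% of the calls were higher. That share fell without day 4 replicate 2 and rose without each of the other libraries. Levels below are CPM (counts scaled for library size) in replicate 1 and then replicate 2. Errors of log2FC are approximate standard errors, the absolute log2FC divided by the square root of the F statistic of the edgeR test. Only RNA summed over a culture was measured, so that more cells expressing a gene and more RNA per cell cannot be told apart.

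Most genes of a list named for the response to low oxygen were higher at day 6. The naive stocks were kept at reduced oxygen, and the level used after seeding in mTeSR is not given in the sources used here. Of the 13 tested genes of the hypoxia response list, 9 were called higher and none lower, 12 were higher at an adjusted p under 0.05 whatever the fold, and the median log2FC was 1.34. All 9 calls held in each of the other settings tried, which gave 9 to 11. The 7 promoter stretches printed with the results were read from RefSeq (GRCh38.p14) and run 5′ to 3′ in the direction of transcription. Those of PDK1, LDHA, BNIP3 and FAM162A are shown because their genes rose here and they hold several copies of the HIF core, in capitals as ACGTG or GCGTG or as their reverse complements CACGT and CACGC.
PDK1, chr2:172555970-172556089, plus strand: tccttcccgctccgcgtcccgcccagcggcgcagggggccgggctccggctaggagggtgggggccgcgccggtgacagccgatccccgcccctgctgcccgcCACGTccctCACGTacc
LDHA, chr11:18394377-18394496, plus strand: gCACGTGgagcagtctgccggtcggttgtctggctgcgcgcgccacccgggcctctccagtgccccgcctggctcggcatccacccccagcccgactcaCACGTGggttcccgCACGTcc
BNIP3, chr10:131981962-131982081, minus strand: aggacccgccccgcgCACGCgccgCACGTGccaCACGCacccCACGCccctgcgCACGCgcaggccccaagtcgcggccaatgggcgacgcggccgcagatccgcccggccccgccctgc
FAM162A, chr3:122384062-122384181, plus strand: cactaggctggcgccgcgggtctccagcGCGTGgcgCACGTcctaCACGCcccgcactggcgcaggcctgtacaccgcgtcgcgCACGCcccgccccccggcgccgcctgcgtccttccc

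In the 250 bases before each listed start, ACGTG on either strand was found in 10 of 12 called hypoxia or glycolysis genes with a listed promoter, and in 10 of their 18 promoters. Among all 35116 listed promoters 18.5% held it. The form GCGTG was found in 7 of these genes, in 8 of their 18 promoters and in 32.2% of all promoters. CACGTG reads as ACGTG on both strands and was counted on each. These matches are descriptions of sequence and show no binding.

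PDK1, a kinase that restrains pyruvate dehydrogenase and so keeps pyruvate out of the citric acid cycle, stood at 12.2 and 13.8 CPM at day 4 and at 47.6 and 51.9 CPM at day 6. The gene spans chr2:172555373-172724312, and the printed stretch ends at the second of its listed starts. Its log2FC was 1.93 ± 0.214 (adjusted p = 1.6e-07). P4HA1, a subunit of the collagen prolyl hydroxylase, was tightly replicated, with 110 and 109 CPM at day 4 and 266 and 288 CPM at day 6. Its log2FC of 1.34 ± 0.096 had the smallest adjusted p of the list (6.93e-11). BNIP3, which marks mitochondria for removal, went from 281 and 321 CPM to 657 and 768 CPM (log2FC 1.24 ± 0.127, adjusted p = 2.98e-08). In each of these genes both day 6 libraries lay above both day 4 libraries.

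Secreted and regulatory members of the list rose as well. The vasoactive peptide gene ADM went from 19.3 and 28.1 CPM to 96.2 and 100 CPM (log2FC 2.05 ± 0.185, adjusted p = 4.52e-09). ANGPTL4, a secreted inhibitor of lipoprotein lipase, went from 2.59 and 4.84 CPM to 18.1 and 15.7 CPM (log2FC 2.18 ± 0.39, adjusted p = 0.000328). EGLN1, the prolyl hydroxylase that marks HIF for degradation and is itself induced by HIF, went from 8.94 and 8.75 CPM to 27.6 and 34.5 CPM (log2FC 1.81 ± 0.264, adjusted p = 1.69e-05). Its paralog EGLN3 stood at 28 and 30.6 CPM and then at 31.9 and 33.2 CPM, and did not pass the test (log2FC 0.15 ± 0.143, adjusted p = 0.58). PFKFB4, which makes the activator of phosphofructokinase, went from 6.12 and 4.84 CPM to 21.5 and 29.7 CPM (log2FC 2.22 ± 0.315, adjusted p = 1.19e-05). NDRG1 and DDIT4, the latter an inhibitor of mTORC1, had log2FC of 1.44 and 1.10. VEGFA, the angiogenic factor, reached 0.95 (adjusted p = 1.69e-05), below the fold threshold, as did ANKRD37 at 0.91 and the histone demethylase KDM3A at 0.78.

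Glycolysis genes were higher at day 6 in part. Of 23 tested, 5 were called higher and none lower, 12 were higher at an adjusted p under 0.05, and the median log2FC was 0.47. SLC16A3, the lactate exporter gene at chr17:82217934-82240086, had the largest gain of the list and went from 9.18 and 12.9 CPM to 60.6 and 70 CPM (log2FC 2.56 ± 0.258, adjusted p = 2.63e-08). LDHA, which turns pyruvate into lactate, went from 360 and 476 CPM to 940 and 1100 CPM (log2FC 1.29 ± 0.173, adjusted p = 4.81e-06). LDHB, whose product favours the opposite direction, had a log2FC of -0.09 and did not pass the test. The enolase ENO2 went from 39.8 and 36.4 CPM to 119 and 140 CPM (log2FC 1.77 ± 0.162, adjusted p = 5.64e-09).

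The other glycolysis genes named here, apart from PDK1, had smaller log2FC. The glucose transporters SLC2A3 and SLC2A1 had log2FC of 0.90 and 0.83, PGK1 had 0.93, PFKFB3 had 0.90, GPI had 0.77 and HK2 had 0.70, all with adjusted p under 0.05 and below the fold threshold. GAPDH had 0.10 (adjusted p = 0.679). ALDOC, an aldolase, was called at 1.02, and this call was lost without day 4 replicate 1, without day 6 replicate 2 and under a filter of more than 10 counts, with 0.74 to 1.38 over all settings. PDK1 counts in both lists.

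**Figure D1:**
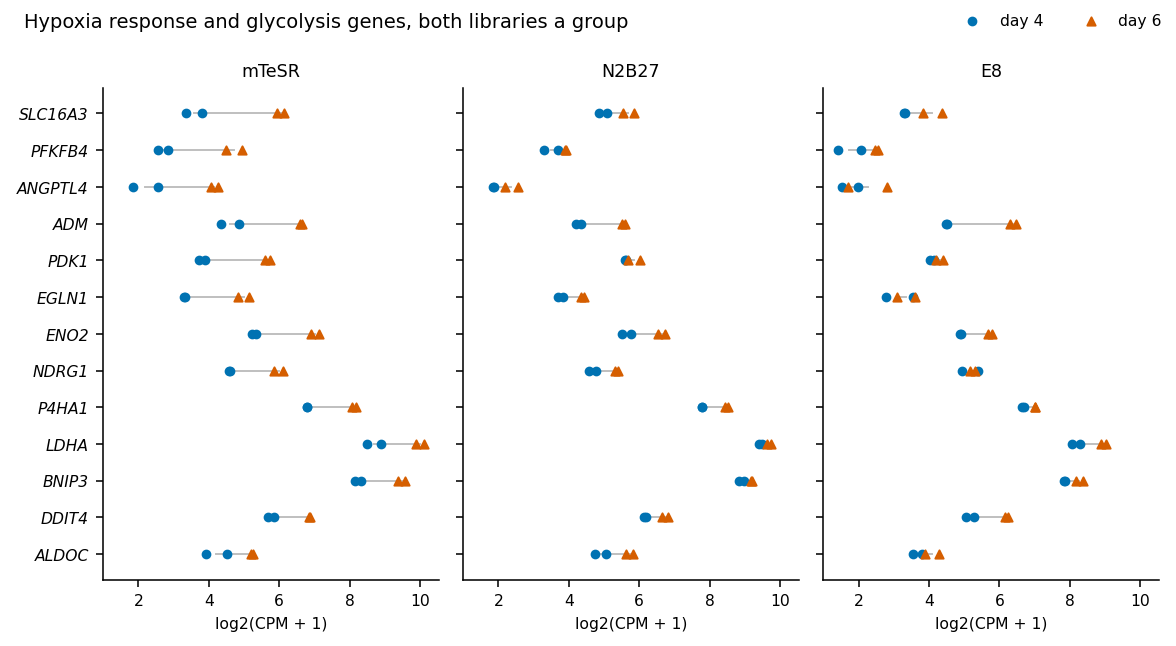
Levels of the 13 hypoxia and glycolysis genes called higher in mTeSR, as log2(CPM + 1), with 1 point per library (circles day 4, triangles day 6) and a grey line joining the means of both days, in mTeSR, N2B27 and E8. In mTeSR the triangles of every gene lie to the right of the circles, and PDK1 in mTeSR moved from 12.2 and 13.8 CPM to 47.6 and 51.9 CPM while in E8 it stayed between 15.2 and 20.3 CPM.

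The Nodal pathway gained in antagonists, with no call among receptors or SMADs. Of 21 tested genes 5 were called higher and none lower, with a median log2FC of 0.17. The ligand gene NODAL, at chr10:70431936-70447951, went from 94.8 and 118 CPM to 185 and 173 CPM (log2FC 0.75 ± 0.164, adjusted p = 0.00283), below the fold threshold. Its co-receptor gene TDGF1 stood at 262 and 219 CPM and then at 227 and 213 CPM (log2FC -0.13, adjusted p = 0.601). The related ligand gene GDF3 had a log2FC of -0.20 (adjusted p = 0.296).

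LEFTY2, which binds Nodal and its co-receptor, had the largest gain among the antagonists detected in every library. It lies at chr1:225936603-225941220 and went from 2.59 and 5.53 CPM to 40.9 and 44.2 CPM (log2FC 3.38 ± 0.341, adjusted p = 2.63e-08). Its neighbour LEFTY1, at chr1:225886282-225889146, went from 40.9 and 43.3 CPM to 111 and 122 CPM (log2FC 1.46 ± 0.188, adjusted p = 2.26e-06). Both genes are near-identical copies, so that the split of reads between them is uncertain. CER1, a secreted antagonist of Nodal, BMP and WNT, had 0 and 1 counts at day 4 and 56 and 35 counts at day 6, a ratio of 85.4 with a 95% counting interval of 14.9 to 3410. FST, which binds Activin and BMP ligands, had a log2FC of 1.03 ± 0.242 (adjusted p = 0.00545), and its call was lost without day 4 replicate 1 and without day 6 replicate 2 (0.95 to 1.11 over all settings).

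Regulators of the primitive streak, mesoderm and endoderm appeared at low to moderate levels. Of 24 tested genes 9 were called higher and none lower, with a median log2FC of 0.98, unchanged when SOX17 is set at its lower bound. The streak factor MIXL1, at chr1:226223664-226227060, went from 6.12 and 9.9 CPM to 64.8 and 64.4 CPM (log2FC 3.01 ± 0.235, adjusted p = 2.58e-10). TBXT, the Brachyury gene of nascent mesoderm, went from 8.24 and 6.22 CPM to 38 and 49.6 CPM (log2FC 2.60 ± 0.252, adjusted p = 2.62e-08). EOMES, which specifies endoderm and cardiac mesoderm, went from 0.706 and 1.84 CPM to 15 and 14.4 CPM (log2FC 3.50 ± 0.421, adjusted p = 8.44e-07). These 3 calls held in every setting tried, and in each gene the lowest day 6 library lay more than 4-fold above the highest day 4 library.

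Endoderm genes were close to the limit of detection at day 4. SOX17 had 0 counts in both day 4 libraries and 3.54 and 4.1 CPM at day 6, at least 10.9-fold higher when day 4 is set at a floor of 3 counts over its libraries (adjusted p = 1.19e-05). GATA6 had 0 and 1 counts at day 4 and 14 and 14 at day 6, a ratio of 26.3 with a counting interval of 4.34 to 1070. FOXA2 went from 0 and 0.921 CPM to 1.99 and 2.59 CPM (log2FC 2.23 ± 0.684, adjusted p = 0.038). These intervals and floors cover counting error only, since reads without molecular identifiers are not independent molecules.

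Calls at such levels were less firm. LHX1, a factor of anterior mesendoderm, went from 0.706 and 4.14 CPM to 9.51 and 11.2 CPM (log2FC 2.07 ± 0.465, adjusted p = 0.00377) and lost its call without day 4 replicate 1 (1.32 to 3.82 over all settings, adjusted p up to 0.149). GSC, the organiser gene goosecoid, went from 1.41 and 0.691 CPM to 5.09 and 5.39 CPM (log2FC 2.29 ± 0.619, adjusted p = 0.017) and lost its call whichever of the 4 libraries was left out (1.87 to 2.87). FOXA2 lost its call without day 4 replicate 1, without either day 6 library, without a filter and under DESeq2 (1.29 to 6.37). The list then had as few as 6 calls, without day 4 replicate 1. MESP1, TBX6, MSGN1, HAND2 and FOXA1 had too few counts to be tested.

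WNT pathway genes did not share a direction. Of 32 tested, 5 were called higher and none lower, while 6 were higher and 4 lower at an adjusted p under 0.05, and the median log2FC was 0.11. SP5, a direct WNT target at chr2:170715337-170718078, went from 6.82 and 8.98 CPM to 96.4 and 108 CPM (log2FC 3.69 ± 0.273, adjusted p = 9.19e-11). AXIN2, another widely used WNT target, stood at 55.5 and 37.1 CPM and then at 39.4 and 39.9 CPM (log2FC -0.22 ± 0.194, adjusted p = 0.53). RNF43, a ubiquitin ligase that removes WNT receptors, went from 0.941 and 1.15 CPM to 5.09 and 4.96 CPM (log2FC 2.23 ± 0.445, adjusted p = 0.00111). WLS, which carries WNT ligands to the surface, and the ligand gene WNT5A had log2FC of 2.11 and 1.83, and the call of WNT5A was lost without day 4 replicate 1 (adjusted p = 0.066). The co-receptor gene LRP6 was lower at 136 and 123 CPM against 213 and 204 CPM (log2FC -0.69 ± 0.136, adjusted p = 0.00105), below the fold threshold. The secreted WNT modulator SFRP2 stood at 86.6 and 72.3 CPM and then at 37.6 and 41.8 CPM, a log2FC of -1 ± 0.147 (adjusted p = 2.59e-05) that just missed the fold threshold. In 8 of the 12 other settings 1 gene of this list was called lower, so that 1 lower call was the more frequent outcome for it.

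Stretches before SP5, MIXL1 and CER1 are shown because these genes rose together and their promoters hold the short forms bound by TCF and LEF factors (CTTTGAT) or by FOXH1 (TGTGNATT), in capitals on either strand.
SP5, chr2:170715168-170715287, plus strand: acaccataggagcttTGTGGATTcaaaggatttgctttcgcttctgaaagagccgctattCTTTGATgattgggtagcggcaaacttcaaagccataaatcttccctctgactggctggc
MIXL1, chr1:226223544-226223663, plus strand: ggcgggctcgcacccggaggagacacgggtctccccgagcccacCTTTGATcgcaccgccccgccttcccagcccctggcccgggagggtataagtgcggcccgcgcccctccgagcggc
CER1, chr9:14722783-14722902, minus strand: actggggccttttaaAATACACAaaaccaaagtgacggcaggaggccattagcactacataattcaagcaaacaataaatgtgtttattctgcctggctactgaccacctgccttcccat

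CTTTGAT was found before 2 of 11 called Nodal, WNT or streak genes with a listed promoter, SP5 and MIXL1, in 2 of their 15 promoters and in 2.26% of all promoters. TGTGNATT was found before 3 of the 11, CER1, MIXL1 and SP5, in 3 of the 15 promoters and in 2.89% of all promoters, the copy of MIXL1 lying outside the printed stretch. ACGTG was found in 0 and GCGTG in 5 of the 15 promoters of these genes, and CTTTGAT and TGTGNATT in 0 of the 18 of the hypoxia and glycolysis genes. An empty window says only that these letters are not in it.

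**Figure D2:**
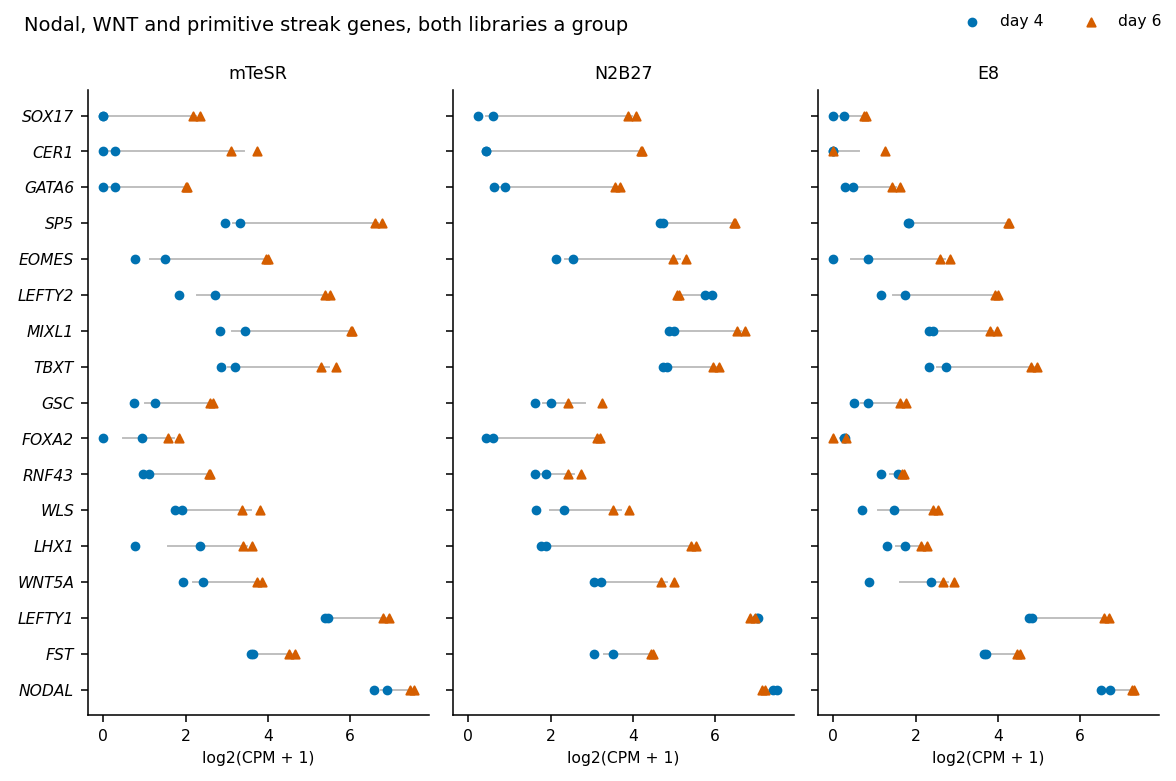
Levels of Nodal, WNT and primitive streak genes as log2(CPM + 1), with 1 point per library (circles day 4, triangles day 6) and a grey line joining the means, in mTeSR, N2B27 and E8. In mTeSR all 17 genes lie higher at day 6, NODAL with a log2FC of 0.75 below the fold threshold, while LEFTY2 in N2B27 moved from 52.5 and 59.3 CPM to 34 and 32.4 CPM.

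BMP pathway genes changed at low levels or by small amounts. Of 20 tested, 5 were called higher and none lower, with a median log2FC of 0.29. BMP4, the ligand that induces mesoderm and amnion, went from 50.8 and 64.2 CPM to 91.4 and 89.9 CPM (log2FC 0.65 ± 0.138, adjusted p = 0.00211), below the fold threshold. ID2, a BMP target, went from 16.2 and 16.6 CPM to 33.2 and 32.8 CPM (log2FC 1.01 ± 0.192, adjusted p = 0.000704) and crossed the fold threshold in only 6 of 12 other settings (0.98 to 1.03). The antagonist gene NOG, the ligand gene BMP2 and the effector gene SMAD9 stayed under 7 CPM, with log2FC of 1.71, 1.73 and 2.45. Their calls were lost without day 4 replicate 2, those of BMP2 and SMAD9 also without day 6 replicate 2 and those of NOG and ID2 without day 6 replicate 1, and ID2 was lost without day 4 replicate 1. NOG and BMP2 were also lost under DESeq2, and BMP2 also without a filter and with the compared libraries alone. The list had as few as 2 calls, without day 4 replicate 2 or day 6 replicate 2.

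Cell state genes changed in part. Of 28 tested naive markers, 2 were called lower and none higher, with a median log2FC of -0.32. SUSD2, a surface marker of naive cells at chr22:24181487-24189106, fell from 91.8 and 82.2 CPM to 37.6 and 39.4 CPM (log2FC -1.17 ± 0.17, adjusted p = 1.53e-05). HORMAD1, a meiotic gene, was under 5 CPM throughout (log2FC -1.12 ± 0.357, adjusted p = 0.0453) and lost its call in 9 of 12 other settings, each single left-out library among them. KLF17, a defining naive factor, was at 42.4 and 66.1 CPM and then at 36.9 and 38.8 CPM (log2FC -0.52 ± 0.262, adjusted p = 0.23). TFAP2C and DPPA5 had log2FC of 0.04 and -0.02. PRDM14, NR5A2, NLRP2 and KHDC1L were lower at an adjusted p under 0.05 with log2FC of -0.48 to -0.76.

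Of 26 tested formative or primed markers, which include SFRP2, 7 were called higher and none lower, with a median log2FC of 0.30. In 8 of the 12 other settings 1 gene of this list was called lower. NTS, the neurotensin gene at chr12:85874295-85882992, had the largest log2FC among called genes with a mean of at least 20 CPM and no overlap between days, from 1.41 and 1.15 CPM to 18.4 and 23.9 CPM (log2FC 4.02 ± 0.313, adjusted p = 3.1e-10). CDH2, the N-cadherin gene, went from 10.4 and 11.3 CPM to 46 and 50.4 CPM (log2FC 2.15 ± 0.19, adjusted p = 2.99e-09). The transcription factor gene ZIC2 went from 31.5 and 35.2 CPM to 64.8 and 71.8 CPM (log2FC 1.03, adjusted p = 3.05e-05). Its call was lost without day 4 replicate 1 and without day 6 replicate 2, where the list had 4 calls, and its relative ZIC5 lost its call whichever library was left out (0.78 to 1.72). ZIC5 was also lost without a filter and under DESeq2. STC1 had a log2FC of 2.51 and kept its call in all settings. VIM, the intermediate filament of mesenchymal cells, stood at 55.3 and 53.7 CPM and then at 56.2 and 56.5 CPM (log2FC 0.05 ± 0.205, adjusted p = 0.921). DNMT3B, the de novo methyltransferase, was lower at an adjusted p of 0.00215 (log2FC -0.47 ± 0.101).

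No general pluripotency gene passed both thresholds. Of 12 such genes 0 were called by edgeR and 0 by DESeq2, 4 had an unadjusted p under 0.05 (as did 23.3% of all genes), the median log2FC was -0.16, and L1TD1 and ZFP42 were lower at an adjusted p under 0.05 (log2FC -0.30 and -0.33). NANOG stood at 1050 and 1190 CPM and then at 1080 and 1120 CPM (log2FC -0.02). POU5F1 stood at 677 and 465 CPM and then at 410 and 392 CPM (log2FC -0.51, adjusted p = 0.295), and SOX2 had a log2FC of -0.21 (adjusted p = 0.271).

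Markers of other cell types gave a mixed background to these gains. Of all tested genes 2.29% were called higher. In the trophectoderm and amnion list 1 of 17 tested genes was called, ENPEP, a peptidase that went from 7.29 and 5.99 CPM to 22.3 and 21.1 CPM (log2FC 1.71), and the summed level of the list was 560 and 579 CPM at day 4 and 559 and 577 CPM at day 6. In the neural list 2 of 16 were called, the neurofilament genes NEFL (log2FC 1.13) and NEFM (1.12, lost without day 4 replicate 1 and without day 6 replicate 2), and summed levels were 476 and 472 CPM and then 503 and 517 CPM. PAX3, SOX1 and HES5 had too few counts to be tested. In the fibroblast and mesenchyme list 0 of 12 were called by edgeR or DESeq2. An unadjusted p under 0.05 was found for 3, beside 23.3% of all genes. These were COL1A2, TAGLN and COL1A1 (log2FC 0.58 to 0.82). All 3 were higher also at an adjusted p under 0.05, as were 5.38% of all genes. The summed level of this list went from 193 and 197 CPM to 289 and 318 CPM. LUM, DCN, PRRX1 and FAP were below the test. The streak list summed to 111 and 125 CPM and then to 290 and 312 CPM. The part of any such cells in the other results was not tested.

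**Figure D3:**
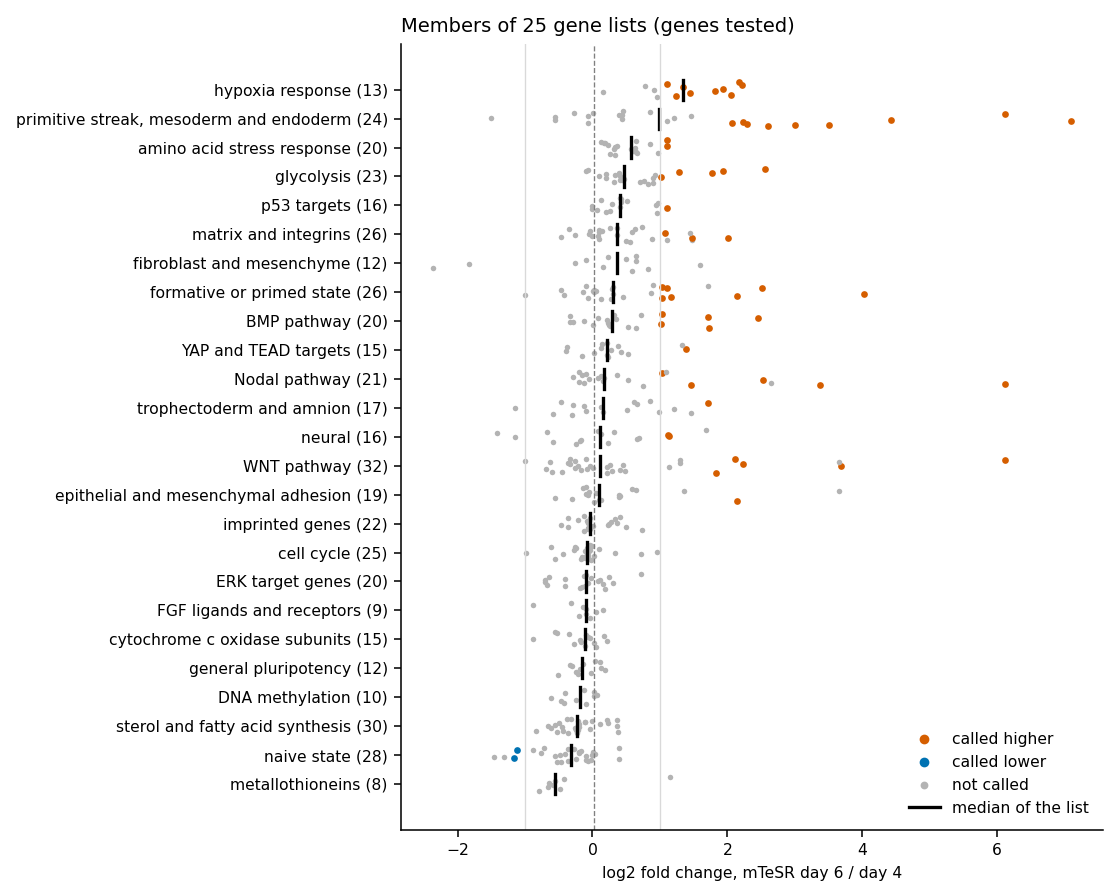
Log2FC of mTeSR day 6 against day 4 for the tested members of 25 gene lists, with the number tested in parentheses. Each point is a gene (orange called higher, blue called lower, grey not called), black bars are list medians, the dashed line is the median of all genes (0.02) and grey lines mark the fold threshold. The hypoxia response has the highest median (1.34) and the metallothioneins the lowest (-0.56), and the points of SOX17, CER1 and GATA6, with at most 1 count at day 4, depend on the prior count of the fit.

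Some lists moved by small amounts and mostly one way. Most metallothioneins, small proteins that bind zinc and copper, were lower by less than the fold threshold. Of 8 tested genes 7 were lower at an adjusted p under 0.05, beside 3.45% of all genes. The same 7 had an unadjusted p under 0.05, with log2FC of -0.42 to -0.80, while edgeR and DESeq2 each called 0 past the fold threshold. MT2A went from 308 and 371 CPM to 245 and 264 CPM (log2FC -0.42 ± 0.102, adjusted p = 0.00775), and the log2FC of MT3 was 1.15 without passing the test (adjusted p = 0.392). Of 20 genes of the amino acid stress response, 2 were called higher and 11 were higher at an adjusted p under 0.05, with a median log2FC of 0.57. They included the serine and asparagine synthesis genes PHGDH (0.57), PSAT1 (0.58) and ASNS (0.97). The called members were DDIT4, which the hypoxia list also holds, and the stress cytokine gene GDF15, which went from 107 and 112 CPM to 253 and 217 CPM (log2FC 1.10, adjusted p = 1.6e-06), with its call lost without day 6 replicate 1 (0.99 to 1.21 over all settings). Of 16 p53 targets GDF15 was the 1 called, and 6 were higher at an adjusted p under 0.05, beside 5.38% of all genes. The cell cycle inhibitor gene CDKN1A was among the 6, at 0.96. Of 30 sterol and fatty acid synthesis genes 7 were lower at that threshold and none was called by edgeR, with MVD at -0.83 and CYP51A1 at -0.62. DESeq2 also called 0, and 16 had an unadjusted p under 0.05, beside 23.3% of all genes.

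Of 26 matrix and integrin genes 3 were called higher, beside 2.29% of all genes. COL18A1, a basement membrane collagen, went from 25.4 and 30.9 CPM to 108 and 119 CPM (log2FC 2.01 ± 0.187, adjusted p = 7.1e-09) and held in all settings. COL11A1 (1.48) and HSPG2 (1.08) lost their calls without day 4 replicate 1 and without either day 6 library. Both were also lost under DESeq2, which left 1 call, and HSPG2 also without a filter. AXL, a receptor kinase, was the 1 called of 15 YAP and TEAD targets (log2FC 1.38), and CDH2 the 1 called of 19 adhesion genes. In the lists of FGF ligands and receptors (9 tested), ERK targets (20), DNA methylation (10), imprinted genes (22), cytochrome c oxidase subunits (15) and cell cycle (25), 0 were called by edgeR and 0 by DESeq2, and medians lay between -0.18 and -0.04. At an unadjusted p under 0.05 there were 1, 6, 3, 6, 4 and 8 genes in these lists, in that order, beside 23.3% of all genes. Within them the receptor gene FGFR3 was lower with 120 and 110 CPM at day 4 and 54.4 and 70.3 CPM at day 6 (log2FC -0.88 ± 0.124, adjusted p = 1.03e-05), and 0 to 3 genes per list passed an adjusted p under 0.05 in each direction.

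Of the called genes, 115 risers and 19 fallers had a mean of at least 20 CPM on their higher side with no overlap between days. Besides genes already given, the 15 largest rises by fold among them included DTNA, which encodes the cytoskeletal linker alpha-dystrobrevin and went from 4 and 5.07 CPM to 34.1 and 40.3 CPM (log2FC 3.03 ± 0.253). PRELID2 (2.61), INHBE, an activin subunit gene (2.09), and ADAM19, a membrane protease gene (2.02), rose from under 7 CPM to above 22 CPM. MARCKS, which encodes a membrane-bound substrate of protein kinase C, went from 9.65 and 13.8 CPM to 52.2 and 51.9 CPM (log2FC 2.15 ± 0.204). These calls held in every setting tried.

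Falls of this size were fewer. CCDC81, at chr11:86374887-86423106, fell from 30.6 and 33.2 CPM to 4.65 and 4.74 CPM (log2FC -2.76 ± 0.264, adjusted p = 1.14e-08). DPF1, a chromatin factor gene, fell from 46.4 and 50 CPM to 10.6 and 16.2 CPM (log2FC -1.84), and IGSF1 from 32.2 and 28.1 CPM to 11.7 and 10.8 CPM (-1.42). The interferon-induced gene MX1 fell from 44.7 and 48.6 CPM to 22.6 and 20.5 CPM (-1.12). These 4 held in all settings. SGK1, a kinase gene (-1.05), TAF13, a subunit gene of TFIID (-1.05), DAB2, an endocytic adaptor gene (-1.09), and SHPK (-1.10) also fell. SGK1, TAF13 and DAB2 lost the call without day 4 replicate 1 (smallest changes over all settings -0.92, -0.91 and -0.98), TAF13 and DAB2 also without day 6 replicate 2, and SHPK without day 4 replicate 2 or day 6 replicate 2. FP671120.1 and FP236383.1 fell by 1.06 on the log2 scale each, lost the call without day 4 replicate 2, and are near-identical copies whose counts cannot be separated.

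The remaining large falls were mitochondrial. The mitochondrial tRNA gene MT-TN went from 40.5 and 35.7 CPM to 6.41 and 3.02 CPM (log2FC -3.01 ± 0.362, adjusted p = 8.42e-07), and MT-ND6, a complex I subunit gene, from 171 and 126 CPM to 56.6 and 43.1 CPM (-1.57). The pseudogenes MTND2P28 (-1.46) and MTCO2P12 (-1.18) are nuclear copies of mitochondrial genes, with which they can share reads, and differed widely between the day 4 libraries, 367 against 187 CPM and 118 against 60.3 CPM. MTND2P28 lost its call without day 4 replicate 1 and without day 6 replicate 2 (smallest change -0.89). MTCO2P12 lost its call without day 4 replicate 1, without either day 6 library and under DESeq2 (smallest change -0.62). In groupings made after the values were seen, the 13 protein-coding mitochondrial genes summed to 21200 and 18600 CPM at day 4 and to 14800 and 14600 CPM at day 6, with 1 called lower and a median log2FC of -0.51. Of 18 mitochondrial tRNA and rRNA genes 3 were called lower (median -0.90), and of 30 mitochondrial pseudogenes 7 (median -0.83), where 0.624% of all genes were. Among 34 histone genes, grouped in the same way, 4 were called lower with a median of -0.74. Mitochondrial tRNAs and most histone transcripts lack the long poly(A) tail from which 3′ tag libraries are primed. The mitochondrial share of all counts moved the same way between days, as given above, and its part in these falls was not tested.

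Some of the calls were shared with the same 2 days in other media. Of the 382 genes called higher in mTeSR, 144 were also called higher in N2B27, which is 37.7% of the mTeSR genes and 28.1% of the 513 called in N2B27 (3.08% of genes tested). In E8 114 were also called, 29.8% of the mTeSR genes and 34.7% of the 329 called in E8 (1.97%). There were 75 called in all 3 media and 199 in mTeSR without a call in either other medium, though 365 and 354 of the 382 had a positive log2FC in N2B27 and in E8. The median log2FC of all tested genes was 0.034 in N2B27 and 0.019 in E8. Of the 104 genes called lower, 29 were also called lower in N2B27 (27.9% of them and 21.5% of the 135 called there, 0.81% of genes tested) and 19 in E8 (18.3%, and 21.1% of 90, 0.54%). Across all tested genes the log2FC correlated with a Spearman rho of 0.496 with N2B27 and 0.506 with E8, which describes these libraries only, since genes are not replicates. A gene called in mTeSR and in no other medium is not thereby shown to differ between media, and the differences were tested directly as interactions. Of 16674 genes, 28 differed between the mTeSR and N2B27 intervals (0.168%), 21 of them with the higher log2FC in mTeSR. Between mTeSR and E8 15 differed (0.09%), 10 with the higher log2FC in mTeSR. Both tests use the same mTeSR libraries.

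Of the 13 hypoxia genes 2 differed from N2B27 and 3 from E8, and of the 23 glycolysis genes 4 and 1, all with the higher log2FC in mTeSR and PDK1 counted in both lists. The median log2FC of the hypoxia list was 1.34 in mTeSR, 0.51 in N2B27 and 0.42 in E8, and 12 of its 13 genes had the higher log2FC in mTeSR against each. Over all tested genes the median difference was -0.003 from N2B27 and -0.02 from E8. PDK1, FAM162A and NRN1 were the 3 genes whose mTeSR change was called above that of both media. Against E8 this was lost in 7 of 15 other settings for PDK1 and in 9 of 15 each for FAM162A and NRN1 (adjusted p up to 0.16, 0.299 and 0.352), among them, for the latter pair, each left-out library and plain totals. In N2B27 PDK1 stood at 47.1 and 48.7 CPM at day 4 and 63.6 and 50.4 CPM at day 6, and in E8 at 16.7 and 15.2 CPM and then 20.3 and 17.3 CPM. Its day 4 levels were thus lower in mTeSR than in N2B27, and its day 6 levels were closer. The mTeSR log2FC of PDK1 exceeded that of N2B27 by 1.68 ± 0.279 (adjusted p = 0.00354) and that of E8 by 1.69 ± 0.313 (adjusted p = 0.0144). For FAM162A and NRN1 the difference from N2B27 was not followed through the other settings. Like PDK1, SLC16A3 was lower in mTeSR than in N2B27 at day 4, with closer levels at day 6. SLC16A3 stood at 27.7 and 33 CPM and then 45 and 56.8 CPM in N2B27 and 8.77 and 9.07 CPM and then 19.6 and 13.2 CPM in E8. Its mTeSR gain exceeded that in N2B27 by 1.81 ± 0.345 (adjusted p = 0.0176, lost in 5 of 15 other settings with adjusted p up to 0.163), while the difference from E8 of 1.69 ± 0.401 did not pass (adjusted p = 0.12).

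P4HA1 exceeded the E8 change by 1.00 ± 0.136 (adjusted p = 0.000193), having moved in E8 from 99.2 and 102 CPM to 127 and 127 CPM. NDRG1, MXI1, FAM162A and NRN1 also exceeded E8, by 1.39, 1.67, 1.12 and 1.62. MXI1, an antagonist of MYC, went from 15.8 and 16.3 CPM to 49.3 and 41.2 CPM in mTeSR and from 16.7 and 19.5 CPM to 16.2 and 15.9 CPM in E8 (adjusted p = 0.00329). FAM162A, a mitochondrial protein gene induced by HIF, went from 106 and 107 CPM to 308 and 334 CPM in mTeSR and from 90 and 97.2 CPM to 133 and 127 CPM in E8 (adjusted p = 0.0438). Against N2B27, HK2, PFKFB3 and KDM3A differed by 1.21, 1.08 and 1.02, in each case with a positive log2FC in mTeSR and a negative one in N2B27. These were lost in 8, 7 and 6 of 15 other settings (adjusted p up to 0.395, 0.257 and 0.288). Most genes of the hypoxia list passed neither test, among them ADM, with log2FC of 1.32 in N2B27 and 1.93 in E8 and differences of 0.73 and 0.11 that did not pass.

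The Nodal antagonist gene LEFTY2 went from 52.5 and 59.3 CPM to 34 and 32.4 CPM in N2B27, opposite to mTeSR, and the difference was 4.13 ± 0.419 (adjusted p = 6.06e-07). LEFTY1 was at 131 and 129 CPM and then 124 and 113 CPM in N2B27, a difference of 1.60 ± 0.253 (adjusted p = 0.0028). NODAL differed by 1.03 ± 0.229 (adjusted p = 0.0456), with 168 and 181 CPM and then 140 and 147 CPM in N2B27, and this was lost in 9 of 15 other settings, each left-out library and plain totals (adjusted p up to 0.275). In E8 LEFTY2 went from 1.25 and 2.37 CPM to 14.2 and 15 CPM, and the difference from mTeSR was 0.39 ± 0.685 (adjusted p = 1). SP5 rose in all 3 media, by more in mTeSR than in N2B27, where it went from 24.1 and 25.6 CPM to 88.8 and 87 CPM (difference 1.87 ± 0.364, adjusted p = 0.0236). In LEFTY2, LEFTY1, NODAL and SP5 the day 4 levels of mTeSR were below those of N2B27, and the day 6 levels were closer.

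No factor gene of the primitive streak list passed the test of a difference. MIXL1 had differences of 1.28 ± 0.307 from N2B27 (adjusted p = 0.0702) and 1.28 ± 0.413 from E8 (adjusted p = 0.452). For TBXT these were 1.32 ± 0.328 (adjusted p = 0.0925) and 0.06 ± 0.408, and for EOMES 0.45 ± 0.571 and -0.21 ± 0.738. The median log2FC of the streak list was 0.98 in mTeSR, 1.51 in N2B27 and 0.58 in E8.

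Further genes differed in either direction. VIM went from 9.53 and 10.8 CPM to 42.3 and 31.6 CPM in N2B27 (difference -1.81 ± 0.322, adjusted p = 0.011). The noncoding RNA gene MIR205HG went from 23.8 and 22.1 CPM to 46.5 and 41.8 CPM in mTeSR and from 6.76 and 8.42 CPM to 44.6 and 50.6 CPM in N2B27 (difference -1.70 ± 0.271, adjusted p = 0.0028). In both genes the day 4 levels of mTeSR were the higher, and the day 6 levels were closer. STOX2 rose in mTeSR from 18.8 and 19.1 CPM to 38 and 41 CPM and went from 24.4 and 22 CPM to 16.3 and 16.9 CPM in N2B27 (difference 1.54 ± 0.25, adjusted p = 0.00283). Against E8, BMP4 gained less in mTeSR, with 56.8 and 65.3 CPM and then 216 and 213 CPM in E8 (difference -1.16 ± 0.192, adjusted p = 0.00417). So did the contractile genes MYL9 (-1.64), ACTC1 (-1.13) and TPM2 (-1.05), while CCDC81 fell further in mTeSR (-1.85, adjusted p = 0.0168). These were lost in 7, 7, 8 and 7 of 15 other settings, in that order (adjusted p up to 0.154, 0.299, 0.299 and 0.184). TPD52 went from 115 and 102 CPM to 180 and 182 CPM in mTeSR and from 123 and 121 CPM to 101 and 94 CPM in E8 (difference 1.07 ± 0.129, adjusted p = 3.72e-05). LEFTY2, LEFTY1 and STOX2 against N2B27 kept their calls in all 15 other settings. The other 21 named differences were lost in at least 1 setting with no change of sign, PDK1 against N2B27 without mTeSR day 4 replicate 1 (adjusted p = 0.0697), MIR205HG without N2B27 day 4 replicate 1, MXI1 without E8 day 4 replicate 2 and TPD52 without mTeSR day 4 replicate 2 as their 1 loss each.

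**Figure D4:**
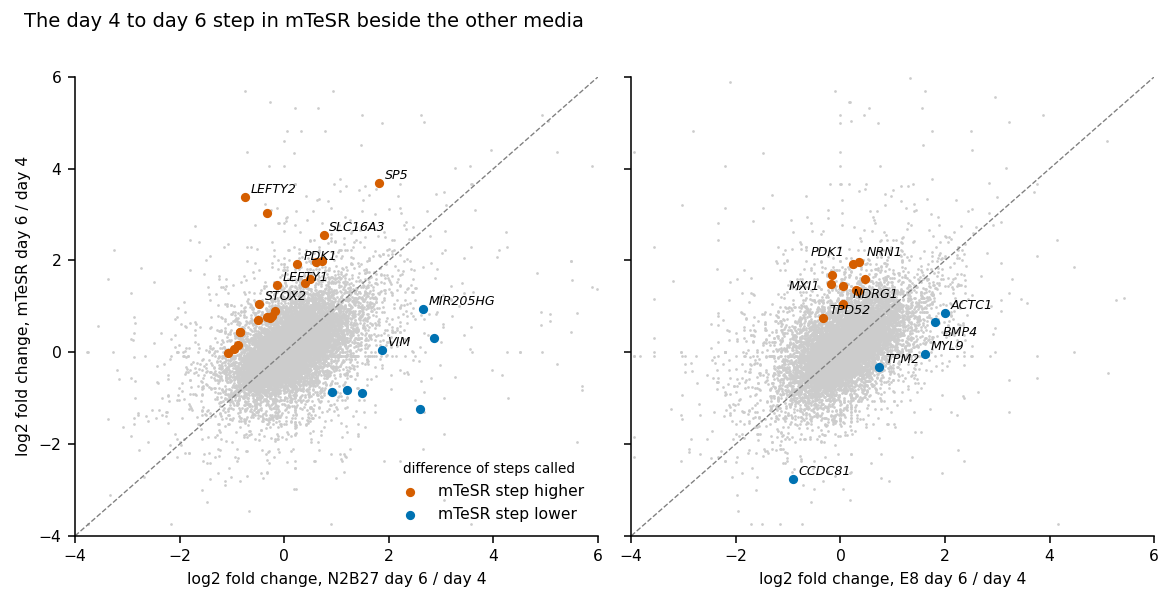
Log2FC from day 4 to day 6 in mTeSR (vertical axis) against that in N2B27 (left) and in E8 (right), with 1 point per tested gene, genes beyond -4 or 6 not shown and the dashed line marking equal change. Coloured points are genes whose difference between media was called (orange higher in mTeSR, blue lower), and LEFTY2 lies furthest above the line among the coloured points on the left, with 3.38 in mTeSR and -0.75 in N2B27.

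By day 8 several of these genes stood higher again, and the values are set side by side because the day 6 libraries enter both intervals. SOX17 reached 35.8 and 35.3 CPM from 3.54 and 4.1 CPM at day 6, CER1 39.6 and 33 CPM, FOXA2 22 and 20.1 CPM, LHX1 42.9 and 56.5 CPM and EOMES 41.3 and 31.9 CPM. TBXT stood at 42.1 and 28.5 CPM against 38 and 49.6 CPM at day 6, with overlapping libraries, and LEFTY2 at 51 and 50.9 CPM against 40.9 and 44.2 CPM. P4HA1 reached 438 and 447 CPM, LDHA 1470 and 1420 CPM and PDK1 79.5 and 59.3 CPM. From day 6 to day 8 their log2FC were 0.68, 0.50 and 0.48, with edgeR adjusted p of 1.47e-05, 0.128 and 0.195, so that no gene of this trio was called, and the hypoxia and glycolysis lists, without a call higher, had medians of 0.14 and 0.22 (0.618% of all genes were called higher). ADM stood lower at day 8 than at day 6 (68.1 and 75 CPM), as did DDIT4 (72.5 and 69.4 CPM) and INHBE (15.5 and 12 CPM). MARCKS reached 175 and 167 CPM and CDH2 124 and 112 CPM, while SUSD2 stood at 15.5 and 18.5 CPM.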

How the data were processed

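The deposited table holds raw gene counts of 38 QuantSeq 3′ mRNA libraries. Per the labels and the study's methods, the authors made these counts with the nf-core rnaseq workflow (FastQC 0.11.9, Salmon 1.9.0, STAR 2.7.10a, hg38) and summed them to genes with tximport. Annotation release and read filters are not given in the sources used here. Of 57133 genes, 16674 passed filterByExpr and held 99.65% of counts. Counts were scaled by TMM and tested with quasi-likelihood F-tests in edgeR 4.0.16 (R 4.3.3). The fit had 1 level for each of 19 groups of 2 libraries, so that 19 residual degrees of freedom set the spread (biological coefficient of variation 10%). Calls required a Benjamini-Hochberg adjusted p under 0.05 over all tested genes and an absolute log2 fold change above 1. Differences between media were contrasts of the same fit.

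Which interval to describe, the gene lists and the tests were chosen with earlier results of these data known, while libraries were assigned to groups by their titles. Named genes were list members, the 15 largest rises and falls among called genes that averaged 20 CPM or more on either day without overlapping libraries, and up to 6 per direction for each difference between media. FAM162A and NRN1 among others entered by the last part of this rule. Mitochondrial and histone groups were made after values were seen. A few list members are counted but not described here.

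With 4208819 to 4554903 counts a library, 3 counts over a group correspond to 0.349 CPM at day 4 and 0.327 CPM at day 6, which served as the floor. Intervals of count ratios are exact 95% intervals. The fit was tested on simulated data. Positions and promoters came from RefSeq on GRCh38.p14, matched by symbol, since the table lists no positions. Replicate numbers did not pair libraries (correlation of deviations between days 0.022). Alternatives were RLE scaling, plain totals, other filters, DESeq2 1.42.0, the compared libraries alone, a replicate block, no fold threshold, and each library left out.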

Additional observations from a re-analysis of the deposited data

Results flagged for a closer look

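These genes changed differently between day 4 and day 6 in mTeSR than in another medium, by the test of the difference itself. The differences of log2 fold changes, mTeSR minus N2B27, were 4.13 for LEFTY2, 1.60 for LEFTY1 and 1.03 for NODAL, and 1.87 for the WNT target SP5. Among genes of glucose use and the response to low oxygen they were 1.81 for SLC16A3, 1.68 for PDK1, 1.21 for HK2, 1.08 for PFKFB3 and 1.02 for KDM3A. STOX2 differed by 1.54, VIM by -1.81 and MIR205HG by -1.70. Adjusted p-values ran from 6.06e-07 (LEFTY2) to 0.0477 (HK2). At day 4 LEFTY2, LEFTY1, NODAL, SP5, SLC16A3 and PDK1 stood lower in mTeSR than in N2B27, and VIM and MIR205HG higher. For each gene of that sentence the day 6 levels of both media were closer.

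The differences mTeSR minus E8 were 1.69 for PDK1, 1.67 for MXI1, 1.62 for NRN1, 1.39 for NDRG1, 1.12 for FAM162A, 1.07 for TPD52 and 1.00 for P4HA1. They were -1.85 for CCDC81, -1.64 for MYL9, -1.16 for BMP4, -1.13 for ACTC1 and -1.05 for TPM2. Adjusted p-values ran from 3.72e-05 (TPD52) to 0.0496 (NRN1). Both sets of differences use the same mTeSR libraries, 2 per day, and PDK1 is in both.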

How the results depend on the processing

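Of 69 named calls of the mTeSR interval 44 held in all settings, and of 24 named differences between media 3 held. None of these reversed its sign, and named genes without a call were not followed through the settings. The 486 calls of the mTeSR interval became 1472 without the fold threshold, 333 under DESeq2 and 485 under RLE scaling. Genes called lower, 104 of them, became 170 without a filter, where 68.2% of 534 calls were higher against 78.6%, and 173 with the compared libraries alone and the replicate block (668 calls in all). Leaving out 1 library gave 249 to 460 calls, 206 to 351 higher and 43 to 109 lower, the remaining library being assumed to vary like those of other groups. The 28 differences from N2B27 became 84 without a filter, 65 with the compared libraries alone and 5 to 20 with 1 library left out. The 15 differences from E8 became 55, 40 and 2 to 8. With the replicate block over all libraries, counts were 486, 29 and 16. Samples with the same number shared only that number. For all of these shifts the cause was not tested. Depth limits genes near or below 3 counts per group at day 4, such as SOX17, CER1, GATA6 and FOXA2.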
